A study of Mus musculus with 24 samples.

Results

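Genes of sprouting angiogenesis were read in brain microvessels of mice after stroke. Among them are markers of tip cells, the leading endothelial cells of a growing vessel sprout. The set of tip cell and sprouting genes held 8 genes, taken as the rows of the normalized counts table with exactly these gene symbols: Apln, Aplnr, Cxcr4, Ackr3, Esm1, Unc5b, Plxnd1 and Robo4. They were 8 of the 17270 genes listed, and 8 of 8 had a mean above 5 normalized counts and were among the 15982 genes tested. The animals were male C57BL/6J mice of 10 to 12 weeks without any transgene or deletion. In transient middle cerebral artery occlusion (tMCAO) a filament closed the right middle cerebral artery for 60 min before reperfusion, and sham surgery was the same procedure without a lasting occlusion. Microvessels of the ipsilateral (operated) and of the contralateral hemisphere were collected 24 h or 7 days later, which gave 8 groups of 3 libraries. The 8 groups were sham contralateral, sham ipsilateral, tMCAO contralateral and tMCAO ipsilateral at each of the time points. Each library pooled 3 whole hemispheres of the same kind, so that vessels inside and outside the infarct were mixed.

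In sprouting angiogenesis a gradient of vascular endothelial growth factor makes single endothelial cells extend filopodia and lead, while Notch signalling holds their neighbours back as stalk cells. Tip cells carry secreted signals such as apelin and endocan, and they read attractive and repulsive guidance cues with the same receptor families that axons use. In the adult brain endothelium is largely quiescent, and ischemia is a known setting of renewed vessel growth.

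The gene products fall into 3 roles. Apln encodes apelin, a secreted peptide, and Aplnr its G protein-coupled receptor. Cxcr4 encodes the signalling receptor for the chemokine CXCL12, and Ackr3 an atypical receptor that binds and removes the same chemokine. Esm1 encodes endocan, a proteoglycan released by endothelial cells. Unc5b, Plxnd1 and Robo4 encode guidance receptors of the netrin, semaphorin and Slit receptor families. In the deposited annotation the terms of 6 of the 8 genes included angiogenesis, which stood beside 2.16% of the genes tested, and the exceptions were Apln and Aplnr. Axon guidance was given for 3 of the 8 (Unc5b, Plxnd1 and Cxcr4; 0.939% of the genes tested) and chemotaxis for 4 (Unc5b, Plxnd1, Ackr3 and Cxcr4; 2.30%).

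In the mm10 (GRCm38) assembly, Apln lies on the minus strand at chrX:48025146-48034853, Aplnr on the plus strand at chr2:85136225-85139923, Cxcr4 on the minus strand at chr1:128588199-128592290 and Ackr3 on the plus strand at chr1:90203980-90216751. Esm1 lies on the plus strand at chr13:113209659-113218098, Unc5b on the minus strand at chr10:60762593-60831581, Plxnd1 on the minus strand at chr6:115954811-115995005 and Robo4 on the plus strand at chr9:37401897-37415115. The span of Esm1 overlaps Gzmk on the opposite strand and that of Unc5b overlaps the predicted locus Gm19972 on the same strand, in neither case with shared exons.

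The 250 bases before the RefSeq start (GRCm38.p6) are shown for Apln and Cxcr4, the genes that differed in most comparisons among those with an entry. Entries were found for 7 of the 8 genes, and Aplnr had none. Capitals mark motif matches on either strand, with the TATA box read on the coding strand only. The motifs searched were the hypoxia response core (ACGTG or GCGTG), AP-1 (TGANTCA), ETS (AGGAAG), forkhead (TGTTTAC) and the TATA box (TATAAA), and no motif lies within another. The Apln window is chrX:48034854-48035103 and the Cxcr4 window chr1:128592300-128592549, both written 5′ to 3′ on the minus strand.
Apln: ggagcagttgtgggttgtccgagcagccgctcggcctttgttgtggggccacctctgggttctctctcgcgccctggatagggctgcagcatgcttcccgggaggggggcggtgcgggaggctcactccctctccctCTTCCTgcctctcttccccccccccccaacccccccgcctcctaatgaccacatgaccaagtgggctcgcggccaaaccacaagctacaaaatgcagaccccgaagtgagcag
Cxcr4: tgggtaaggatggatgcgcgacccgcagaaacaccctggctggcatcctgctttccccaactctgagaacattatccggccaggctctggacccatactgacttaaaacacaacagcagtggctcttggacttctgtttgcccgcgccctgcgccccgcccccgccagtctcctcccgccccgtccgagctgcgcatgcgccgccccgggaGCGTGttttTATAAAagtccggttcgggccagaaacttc
The Apln window held an ETS match, written here as its complement, that began at -113 from the start, and no hypoxia response core. The Cxcr4 window held a core match at -39 and a TATA box at -30. The core stood in 5 of the 7 windows and in 38.6% of 32851 promoters of the same length, ETS in 3 of 7 and in 29.5%, and the TATA box in 2 of 7 and in 7.59%. AP-1 and forkhead letters were in 0 of the 7 windows and in 6.75% and 3.17% of all promoters. The GC content was 65.2% for Apln and 61.2% for Cxcr4, with a median of 52.4% over all promoters.

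Library totals ran from 15924780 to 18787932 normalized counts, and log2 values of replicates correlated with r of 0.967 to 0.988. All 8 endothelial markers were detected, with a sum of 127722 to 198055 normalized counts per library, and other cells of the vessel wall and brain were present too. With tMCAO set against sham in ipsilateral libraries, 10 of 10 neutrophil and monocyte markers were higher at 24 h (sum 4313 to 7784 against 454 to 1546) and 3 of 10 at 7 days, while 4 and then 7 of 7 neuron markers were lower (at 7 days 980 to 1463 against 6922 to 12024). Of the endothelial markers, 0 of 8 at 24 h and 1 of 8 (Egfl7) at 7 days were regulated, and 4 of 4 proliferation markers tested were higher at 7 days (279 to 349 against 57 to 66). Pericyte markers were lower for 2 of 8 at 24 h, astrocyte markers for 3 and 2 of 6 at 24 h and 7 days, oligodendrocyte markers for 2 and 1 of 5, and fibroblast and choroid plexus markers for 0 of 5 at 24 h and for 2 and 3 of 5 at 7 days. Smooth muscle markers were regulated for 0 of 5 at both times, 1 of 4 lymphocyte markers tested was higher at 24 h, and of 8 microglia and macrophage markers 1 was lower at 24 h and 1 was higher and 1 lower at 7 days. The part of these cells in the results below was not tested, and in pooled tissue fewer cells of a type and less RNA per cell cannot be told apart.

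Per kilobase of exon and over the 24 libraries, the guidance receptors and Ackr3 were the abundant genes of the set, and Cxcr4, Esm1 and Aplnr were scarce. Robo4 had the highest mean level, 1435 normalized counts per kilobase (rank 523 of 15966 genes with a length), followed by Ackr3 with 759 (rank 1069), Plxnd1 with 453 (rank 1914) and Unc5b with 307 (rank 2791). Apln reached 208 per kilobase (rank 3992), a mean carried by the tMCAO ipsilateral libraries at 24 h. Cxcr4 had 99.1 (rank 6710), Esm1 42.5 (rank 9613) and Aplnr 34.5 (rank 10164).

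**Figure D1:**
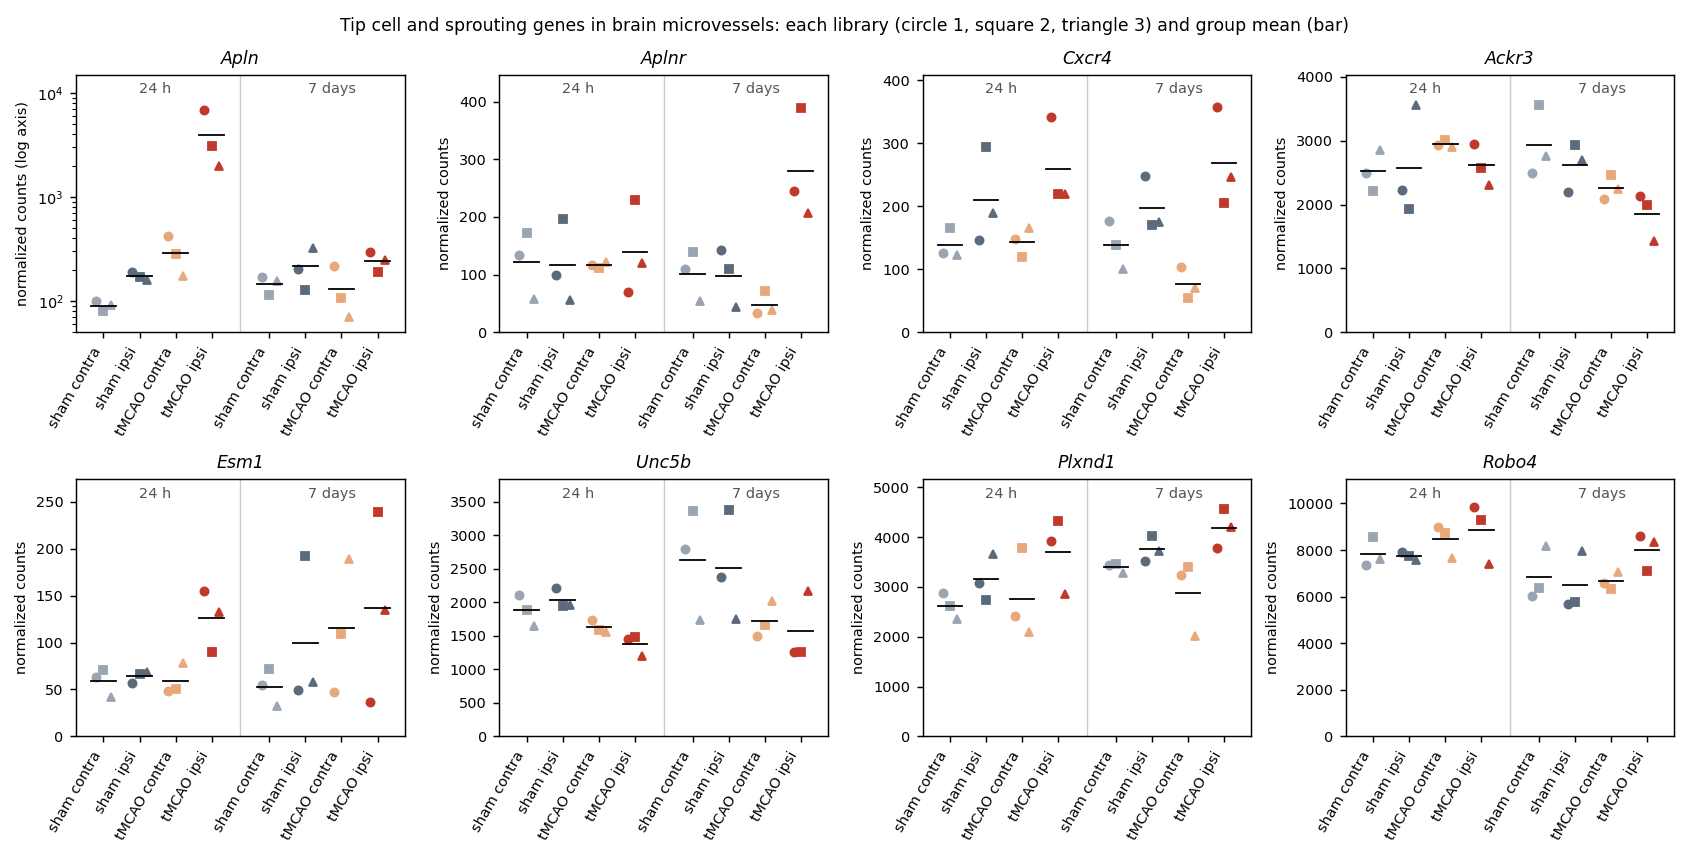
Normalized counts of the 8 genes in each of the 24 libraries (y axis, from 0 except for Apln, whose axis is logarithmic), by group along the x axis. Symbols are the libraries 1, 2 and 3 of a group and bars the group means. Apln stood at 1958 to 6818 in the tMCAO ipsilateral libraries at 24 h and at 70 to 416 in all other libraries.

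To ask how the acute stroke moved these genes, the ipsilateral hemispheres of tMCAO- and sham-operated animals were compared at 24 h. Apln rose by 4.32 on the log2 scale, and of the other 7 genes none passed the test. The values below are normalized counts, and fold changes are on the scale of log2(normalized count + 1), fitted with limma over all genes tested. A gene was called regulated with a Benjamini-Hochberg adjusted p under 0.05 and a change of more than 1.5-fold in either direction (log2 scale as above). By this rule 1 of the 8 genes was regulated, in a comparison in which 18.3% of all genes tested were (10% higher and 8.23% lower). The median log2 fold change of the 8 genes was 0.25, with a median of -0.02 over all genes.

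Apln stood at 188, 170 and 157 normalized counts in the sham ipsilateral libraries and at 6818, 3074 and 1958 in the tMCAO ipsilateral libraries at 24 h. The groups did not overlap, and the lowest stroke library was above every library of the other 7 groups. The log2 fold change was 4.32 (SE 0.42, 95% interval 3.44 to 5.21; adjusted p = 8.86e-07), the rank 19 from the highest of the 15982 genes tested. As fold changes the interval ran from 10.9 to 36.9. For the receptor of apelin no difference was detected at this time. Aplnr was at 100, 197 and 55 in sham ipsilateral and at 70, 230 and 120 in tMCAO ipsilateral libraries, with wide overlap and a log2 fold change of 0.28 (95% interval -0.83 to 1.38; adjusted p = 0.724).

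Cxcr4 was at 147, 294 and 189 in the sham ipsilateral and at 342, 219 and 219 in the tMCAO ipsilateral libraries (log2 fold change 0.33, adjusted p = 0.394). Ackr3 was at 2233, 1927 and 3561 and at 2955, 2577 and 2306 (0.07, adjusted p = 0.82). For both chemokine receptors the libraries of the 2 groups overlapped. Esm1 was at 57, 67 and 69 in sham and at 155, 90 and 133 in stroke libraries, without overlap, but the difference of 0.93 (SE 0.58) did not pass the test (adjusted p = 0.228). That call changed when only the 2 compared groups were fitted (adjusted p = 0.0179).

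Among the guidance receptors, Unc5b was at 2209, 1942 and 1962 in sham and at 1455, 1477 and 1206 in stroke libraries. The stroke libraries were all lower, and the log2 fold change of -0.57 (SE 0.24) missed both limits (adjusted p = 0.0745). With libraries scaled to the mean of the 8 endothelial markers it was -0.73 and passed (adjusted p = 0.0205). Plxnd1 ranged from 2732 to 3651 in sham and from 2854 to 4327 in stroke libraries (0.22, adjusted p = 0.431), and Robo4 from 7561 to 7897 and from 7407 to 9842 (0.18, adjusted p = 0.332). In all, the libraries did not overlap for 3 of the 8 genes (Apln, Esm1 and Unc5b), against 49% of the genes tested.

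At 7 days Aplnr was higher after stroke, about 3.07-fold, and Apln did not pass the test. The comparison of tMCAO with sham ipsilateral libraries at 7 days called 1 of the 8 genes, where 13.2% of all genes were regulated (3.27% higher and 9.95% lower), and the median log2 fold change of the 8 was 0.28 (0.02 over all genes). Aplnr stood at 142, 109 and 43 in sham ipsilateral and at 246, 389 and 207 in tMCAO ipsilateral libraries, without overlap. The log2 fold change was 1.62 (SE 0.53, 95% interval 0.51 to 2.73; adjusted p = 0.0408). This call was close to the limit. It was lost when sham ipsilateral library 2 (adjusted p = 0.0599) or 3 (log2 fold change 1.11, adjusted p = 0.196) or tMCAO ipsilateral library 1 (0.0863) or 2 (0.137) was left out, when only the 2 compared groups were fitted (0.0543), and when libraries were scaled to the mean of the endothelial markers (log2 fold change 1.35, adjusted p = 0.0778). In every sham group library 3 had the lowest Aplnr value, from 43 to 57, while sham libraries 1 and 2 had 100 to 197.

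Apln was at 204, 126 and 325 in sham and at 296, 188 and 246 in stroke ipsilateral libraries at 7 days, and the groups overlapped (log2 fold change 0.24, 95% interval -0.65 to 1.12; adjusted p = 0.767). Cxcr4 was at 248, 170 and 175 in sham and at 357, 205 and 246 in stroke libraries (0.43, adjusted p = 0.351). Ackr3 was at 2196, 2939 and 2703 in sham and at 2141, 1998 and 1426 in stroke libraries, all 3 below the sham libraries (-0.51, SE 0.19, adjusted p = 0.0789). Esm1 spread widely, with 49, 192 and 58 in sham and 37, 239 and 135 in stroke libraries (0.37, adjusted p = 0.727).

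Unc5b was at 2377, 3386 and 1759 in sham and at 1265, 1266 and 2177 in stroke libraries. Library 3 was the lowest of the sham and the highest of the stroke libraries, and with it the groups overlapped. The log2 fold change of -0.67 (SE 0.24) gave an adjusted p of 0.056, and it passed without sham library 3 (-0.90, adjusted p = 0.0178) or without stroke library 3 (-0.93, adjusted p = 0.0101). With other libraries left out it was as small as -0.43 and its adjusted p as high as 0.275. Scaled to the endothelial markers, whose mean was 0.27 higher on the log2 scale after stroke, Unc5b (-0.94, adjusted p = 0.00478) and Ackr3 (-0.77, adjusted p = 0.00675) passed the test. Plxnd1 lay at 3529 to 4017 in sham and at 3782 to 4570 in stroke libraries (0.15, adjusted p = 0.672), and Robo4 at 5695 to 7946 and at 7113 to 8582 (0.32, adjusted p = 0.129). The libraries did not overlap for 2 of the 8 genes (Aplnr and Ackr3), against 30% of the genes tested.

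The ipsilateral tMCAO libraries were also compared between the time points. Apln dropped to 0.0696 of its 24 h level at 7 days (log2 fold change -3.84, SE 0.42, adjusted p = 8.73e-06), and it was the regulated gene among the 8, where 12.2% of all genes were regulated. Aplnr was at 70, 230 and 120 at 24 h and at 246, 389 and 207 at 7 days, with overlap (1.11, 95% interval 0.0025 to 2.22; adjusted p = 0.151). Ackr3 was at 2306 to 2955 at 24 h and at 1426 to 2141 at 7 days, without overlap (-0.51, adjusted p = 0.0689), and passed without 7 day library 1 (-0.62, adjusted p just under 0.05) or with scaling to the endothelial markers (-0.75, adjusted p = 0.00791). With other libraries left out this Ackr3 difference was as small as -0.33 and its adjusted p as high as 0.302. Tested as an interaction, the stroke effect of 7 days minus that of 24 h called Apln (-4.09, SE 0.60, adjusted p = 3.04e-04) and none of the other 7, with 8.12% of all genes called. For Aplnr it was 1.34 (95% interval -0.23 to 2.91; adjusted p = 0.267), so that a larger Aplnr response at 7 days than at 24 h was not shown. For Ackr3 it was -0.57 (adjusted p = 0.188), and it passed without sham ipsilateral library 3 of 24 h (-0.83, adjusted p = 0.0374). With other libraries left out it was as small as -0.39 and its adjusted p as high as 0.408.

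The contralateral hemispheres of tMCAO-operated animals gave another reference, to which the same tMCAO ipsilateral libraries as above were compared. Against the contralateral side Apln and Cxcr4 were higher at 24 h and Aplnr and Cxcr4 at 7 days, which were 2 of the 8 genes at each time, with 13.6% of all genes regulated at 24 h and 13% at 7 days. At 24 h Apln was at 416, 285 and 172 contralaterally and at 6818, 3074 and 1958 ipsilaterally (log2 fold change 3.65, SE 0.42, adjusted p = 7.83e-06). Library 1 was the highest and library 3 the lowest on both sides. At 7 days it was at 214, 107 and 70 contralaterally and at 296, 188 and 246 ipsilaterally, with overlap (1.02, SE 0.42, adjusted p = 0.114). Without contralateral library 1 this difference passed (1.46, adjusted p = 0.032), as it did with same-numbered hemispheres as a block (adjusted p = 0.0052). With other libraries left out it was as small as 0.66 and its adjusted p as high as 0.381.

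Cxcr4 was at 148, 119 and 165 in the contralateral and at 342, 219 and 219 in the ipsilateral tMCAO libraries at 24 h. The groups did not overlap, and the log2 fold change of 0.83 (SE 0.29, adjusted p = 0.0406) passed the test narrowly. It no longer did without contralateral library 1 (adjusted p = 0.0753), 2 (0.132) or 3 (0.0533) or without ipsilateral library 1 (0.192) or 2 (0.0538), nor with scaling to the endothelial markers (0.80, adjusted p = 0.0767). At 7 days the contralateral values were 103, 55 and 70 and the ipsilateral values 357, 205 and 246, again without overlap (1.82, SE 0.29, adjusted p = 1.09e-04, a fold of 3.53). The 7 day contralateral libraries were themselves the lowest of all 8 groups, with a log2 difference of -0.87 from sham contralateral libraries (100 to 177) that did not pass (adjusted p = 0.358). Cxcr4 is also made by leukocytes. The summed neutrophil and monocyte markers were 784 to 1239 contralaterally and 4313 to 7784 ipsilaterally at 24 h and 727 to 2635 and 1215 to 5877 at 7 days, and the summed lymphocyte markers 27 to 35 and 60 to 97 at 7 days. The part of these cells in the Cxcr4 difference was not tested. In sham animals Cxcr4 was also higher ipsilaterally, by 0.56 on the log2 scale at 24 h (limma, unadjusted p = 0.0668) and by 0.52 at 7 days, without passing the test. Against sham ipsilateral libraries the stroke effect did not pass either (0.33 and 0.43). Whether the stroke side differences exceeded those of sham was not tested.

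For Aplnr no difference between the tMCAO hemispheres was detected at 24 h (111 to 121 contralaterally, 70 to 230 ipsilaterally; log2 fold change 0.10, adjusted p = 0.909). At 7 days it was at 33, 72 and 38 contralaterally and at 246, 389 and 207 ipsilaterally, a fold of 5.92 (2.56, SE 0.53, adjusted p = 0.00159). The contralateral values differed from those of the sham contralateral libraries (54 to 139) by -1.05 on the log2 scale, which did not pass the test (adjusted p = 0.519). Esm1 was at 48 to 78 contralaterally and at 90 to 155 ipsilaterally at 24 h (1.09, adjusted p = 0.175). This difference passed with only these groups in the fit (adjusted p = 0.0301) or with same-numbered hemispheres as a block (adjusted p = 0.023). At 7 days Esm1 overlapped widely, with 47 to 189 contralaterally and 37 to 239 ipsilaterally (0.10, adjusted p = 0.944). Plxnd1 was at 2414, 3773 and 2105 against 3920, 4327 and 2854 at 24 h (0.45, adjusted p = 0.112) and at 3233, 3401 and 2012 against 3782, 4570 and 4210 at 7 days (0.57, adjusted p = 0.0587). The Plxnd1 difference passed without contralateral library 2 at 24 h (0.69, adjusted p = 0.0158) and at 7 days (0.71, adjusted p = 0.0315) and without ipsilateral library 3 at 24 h (0.62, adjusted p = 0.0389). With other libraries left out it was as small as 0.27 at 24 h (adjusted p up to 0.402) and 0.33 at 7 days (up to 0.293). Ackr3 (-0.18 and -0.31), Unc5b (-0.24 and -0.17) and Robo4 (0.06 and 0.26) did not pass at 24 h and 7 days, although Ackr3 did at 7 days with scaling to the endothelial markers (-0.61, adjusted p = 0.0258).

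**Figure D2:**
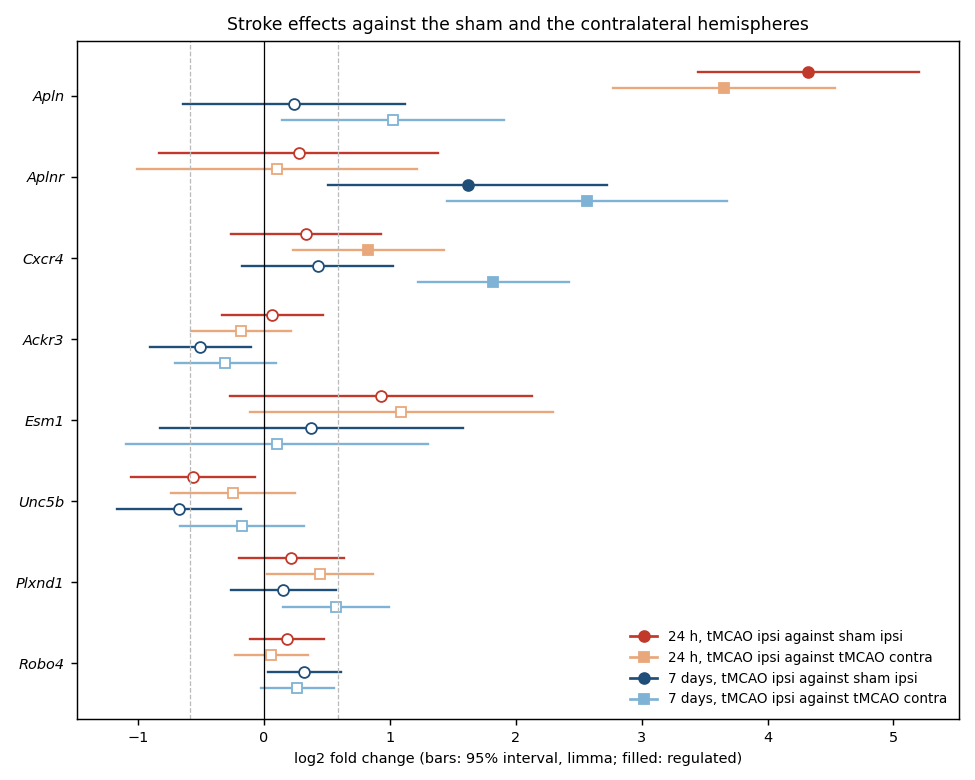
Log2 fold changes of the 8 genes (x axis) in the tMCAO ipsilateral libraries against the sham ipsilateral libraries (circles) and against the tMCAO contralateral libraries (squares) at 24 h (red and orange) and 7 days (dark and light blue), with 95% intervals from limma. Filled symbols are regulated and dashed lines mark a change of 1.5-fold in each direction. Apln stands at 4.32 and 3.65 at 24 h, and Aplnr at 1.62 and 2.56 and Cxcr4 at 0.43 and 1.82 at 7 days.

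Among the control groups no gene of the set was called. Sham ipsilateral against sham contralateral libraries gave 0 of 8 genes and 0% of all genes at 24 h, and 0 of 8 and 0% at 7 days (at an unadjusted p under 0.05, limma gave 1 and 0 of the 8 and 367 and 359 of all genes). Apln was at 99, 79 and 91 in sham contralateral and at 188, 170 and 157 in sham ipsilateral libraries at 24 h, without overlap, with a log2 difference of 0.93 (unadjusted p = 0.0393, adjusted p = 1). Cxcr4 was at 100 to 177 and 170 to 248 on these sides at 7 days, with overlap (0.52, limma, unadjusted p = 0.0824), and did not pass the test. The contralateral hemispheres of tMCAO and sham animals gave 0 of 8 genes and 0% of all genes at 24 h (unadjusted, 1 of 8 and 405 of all genes) and 0 of 8 and 0.0313% at 7 days (unadjusted, 2 of 8 and 1639 of all genes).

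Of the 8 genes, the smallest p among control groups of the same time was that of Apln in the contralateral hemispheres at 24 h. It was at 99, 79 and 91 in sham contralateral and at 416, 285 and 172 in tMCAO contralateral libraries, without overlap (log2 difference 1.60, SE 0.42, unadjusted p = 0.00114, adjusted p = 1). Between the time points, sham ipsilateral libraries gave 0 of 8 genes with 0.476% of all genes, sham contralateral libraries 0 of 8 with 0.332%, and tMCAO contralateral libraries 0 of 8 with 0%. At an unadjusted p under 0.05, limma gave 0, 0 and 4 of the 8 genes and 2258, 1729 and 2637 of all genes. The 4 were lower at 7 days: Cxcr4 (log2 difference -0.95, limma, unadjusted p = 0.00356), Apln (-1.22, 0.00932), Aplnr (-1.35, 0.0197) and Robo4 (-0.34, 0.0236). These tMCAO contralateral libraries of 7 days were the reference of the side differences of Aplnr and Cxcr4 above.

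In the order of group means, the tMCAO ipsilateral group at 24 h came first for Apln, with a gap to the next group that no library bridged, and the other 7 groups overlapped each with its neighbour. For Aplnr, Esm1, Cxcr4 and Plxnd1 the tMCAO ipsilateral group at 7 days came first, with means of 281 ± 95.8, 137 ± 101, 269 ± 78.6 and 4187 ± 394 normalized counts (SD, n = 3), and in each case it overlapped the next group. The same group was the lowest for Ackr3 (1855 ± 378), and the tMCAO ipsilateral group at 24 h was the lowest for Unc5b (1379 ± 151). For Ackr3, Unc5b, Plxnd1 and Robo4 every group overlapped its neighbour in this order, and the highest group mean was 1.36 (Robo4) to 1.91 (Unc5b) times the lowest.

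Set per kilobase against its receptor, the Apln transcript stood at 1.01 to 3.35 times the Aplnr level in sham ipsilateral libraries at 24 h. After stroke it stood at 15.7 to 114 times that level. The ratio of Apln to Aplnr per kilobase was 2.21, 1.01 and 3.35 in sham ipsilateral and 114, 15.7 and 19.2 in tMCAO ipsilateral libraries at 24 h, and it was 1.69, 1.36 and 8.88 and then 1.41, 0.568 and 1.40 in the same groups at 7 days. The 24 h stroke libraries stood above all other libraries. The ratio of Cxcl12 to Cxcr4 was 26.9, 11.1 and 15.7 in sham ipsilateral and 4.08, 6.68 and 7.07 in tMCAO ipsilateral libraries at 24 h, and 17.4, 29.5 and 21.0 and then 9.03, 13.2 and 13.2 at 7 days. At both times the stroke libraries lay below the sham libraries. The ratio of Ackr3 to Cxcr4 was 8.20, 3.54 and 10.2 in sham and 4.67, 6.35 and 5.69 in stroke ipsilateral libraries at 24 h, with overlap, and 4.78, 9.34 and 8.34 against 3.24, 5.26 and 3.13 at 7 days, also with overlap.

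**Figure D3:**
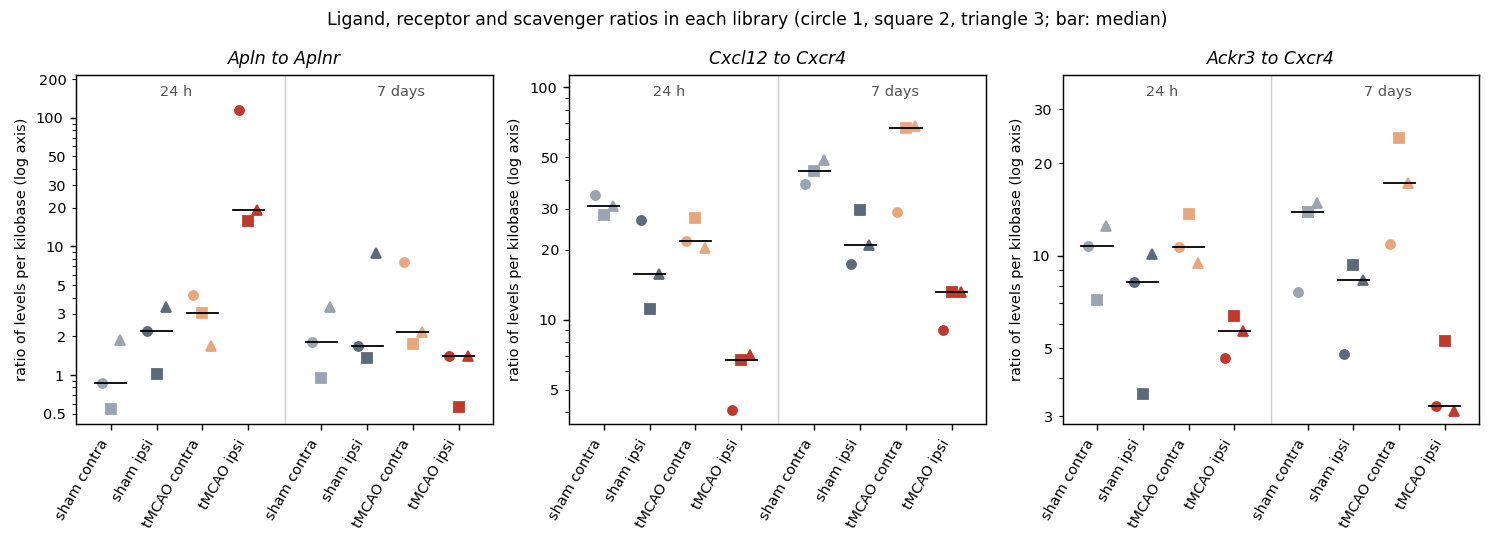
Ratios of levels per kilobase of exon in each library (y axes, logarithmic) for Apln to Aplnr, Cxcl12 to Cxcr4 and Ackr3 to Cxcr4, by group along the x axis, with symbols for the libraries 1, 2 and 3 and bars for group medians. The Apln to Aplnr ratio lies at 15.7 to 114 in the tMCAO ipsilateral libraries at 24 h and at 8.88 or lower in all other libraries.

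The partners of these genes in the same pathways were read from 4 lists. Of 15 ligands tested of the receptors in the set or of related receptors, 1 was higher (Mif, a cytokine that also binds CXCR4) and 4 were lower at 24 h in tMCAO against sham ipsilateral libraries, with a median log2 fold change of -0.70, while all genes tested gave 10% and 8.23%. None of the ligands was higher at 7 days and 4 were lower (median -0.40), beside 3.27% and 9.95% of all genes, and these shares hold for the other lists too. Cxcl12, the ligand of Cxcr4 and Ackr3, was at 17886, 14806 and 13407 in sham and at 6309, 6617 and 7006 in stroke libraries at 24 h, without overlap, and fell by 1.20 on the log2 scale (SE 0.16, adjusted p = 3.18e-05). Flrt2 and Flrt3, which bind Unc5 receptors, and Sema3c, a semaphorin, were the others that fell at 24 h. Mif rose by 0.85 (SE 0.23, adjusted p = 0.0102), a call lost without sham library 1 (adjusted p = 0.0514), and the count of lower genes was 2 in place of 4 without tMCAO library 2. At 7 days Flrt3 was at 76, 31 and 55 in sham and at 5, 11 and 9 in stroke libraries (-2.53, SE 0.38, adjusted p = 9.26e-05), and Slit1, Sema3a and Flrt2 were the others that fell. The count of lower genes was 2 in place of 4 without sham library 1 or 2 or stroke library 1 and with only the compared groups in the fit.

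Of 18 related and partner receptors tested, 0 were higher and 5 lower at 24 h (median -0.38), and 1 was higher and 6 lower at 7 days (median -0.70). Robo2, a Slit receptor known from neurons, was at 126, 136 and 127 in sham and at 52, 38 and 65 in stroke libraries at 24 h and fell by 1.34 on the log2 scale (SE 0.29, adjusted p = 0.00183). Robo1, Plxnc1, Plxnb1 and Neo1, also guidance receptors, fell with it, and the count of lower genes was 2 in place of 5 without stroke library 2. At 7 days the netrin receptor Unc5d had the largest decrease, from 14, 22 and 19 to 1, 2 and 3 (-2.72, SE 0.54, adjusted p = 0.0013), and Robo2, Unc5a, Unc5c, Robo1 and Plxnc1 also fell. Several of these receptors are known from neurons, whose markers were lower in the same libraries (at 24 h 2292 to 3517 against 5956 to 6737 in sum), and the part of neuronal RNA was not tested. Plxnb2, a semaphorin receptor, rose by 0.61 at 7 days (adjusted p = 0.0251), a call lost without sham library 2 (0.0529) or 3 (0.13), without stroke library 2 (0.0843) or 3 (0.059), with only the compared groups in the fit, and with scaling to endothelial markers (0.34, adjusted p = 0.304).

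Of 24 other tip cell genes, 5 were higher and 1 lower at 24 h (median 0.40), and 1 was higher and 2 lower at 7 days (median 0.08). All genes gave 10% higher and 8.23% lower at 24 h and 3.27% and 9.95% at 7 days, so that the 1 lower gene at 24 h and both counts of 7 days were near or under these shares. The 5 were Col4a1, Col4a2, Lxn, Cd93 and Mmp14. Col4a1, a chain of the collagen IV of the basement membrane, was at 30530, 30609 and 37772 in sham and at 73491, 81875 and 48910 in stroke libraries at 24 h, without overlap (1.02, SE 0.31, adjusted p = 0.0175). That call was lost without sham library 1 (0.0594) or 2 (0.0519) or stroke library 1 (0.062) or 2 (0.0788), and the count of higher genes was 1, 2 and 3 in place of 5 without sham library 1, stroke library 1 and stroke library 2. Igf1r, the receptor of insulin-like growth factor 1, fell by 0.93 (SE 0.19, adjusted p = 0.00121). At 7 days Pgf, which encodes placental growth factor, was at 494, 409 and 552 in sham and at 1223, 727 and 1019 in stroke libraries (1.01, SE 0.21, adjusted p = 0.00218). The count of higher genes was 4 in place of 1 without sham library 2 and 2 with no limit on the fold change. Vegfa, the growth factor that induces tip cells, was at 252, 171 and 280 in sham and at 84, 102 and 65 in stroke libraries (-1.47, SE 0.34, adjusted p = 0.00526), and the Notch ligand Dll4 fell too. The count of lower genes was 1 in place of 2 without stroke library 2 or 3.

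Of 19 stalk cell and Notch genes, 0 were higher and 1 lower at each time, with medians of -0.02 and 0.06, and 1 lower gene was under the 8.23% and 9.95% of all genes. With no limit on the fold change 3 were higher at 24 h and 2 at 7 days, and 1 was higher without stroke library 3 at 24 h, without stroke library 1 or 2 at 7 days and with median centring at 7 days. At 24 h the lower gene was Hey1, a Notch target, at 1871, 1588 and 1631 in sham and at 986, 1068 and 1043 in stroke libraries (-0.71, SE 0.17, adjusted p = 0.0037), and the count of lower genes was 2 without sham library 2 or stroke library 2, with median centring, with scaling to the endothelial markers or with no limit on the fold change. At 7 days it was Heyl, another target, with -0.84 (SE 0.25, adjusted p = 0.0253), a call lost without sham library 1 (0.114) or 2 (0.0649) or stroke library 1 (0.107) or 2 (0.0567), and the count was 2 with scaling to the endothelial markers. Tie1 and Tek belong to both this list and the endothelial markers, so that the scaling rests in part on genes of the list.

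**Figure D4:**
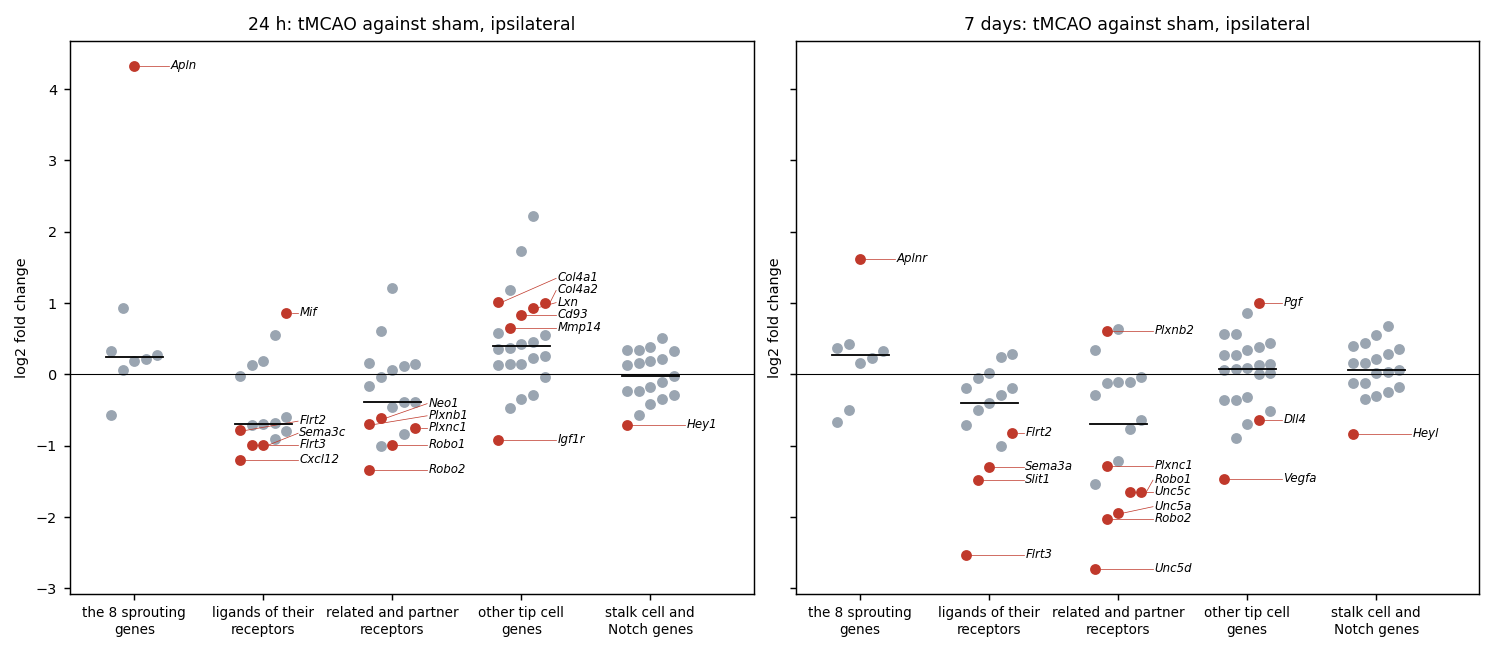
Log2 fold changes of tMCAO against sham ipsilateral libraries (y axis) at 24 h (left) and 7 days (right) for the 8 sprouting genes and the 4 lists of related genes along the x axis, 1 point per gene tested. Red points with names are regulated, grey points are not, and bars are list medians. At 24 h Apln stands at 4.32, above every gene of the other lists, whose medians run from -0.70 to 0.40.

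For each of the 8 genes, the 3 genes with the most similar pattern over the 24 libraries were read from Pearson correlations of log2 values, as a description. The libraries share their surgery, hemisphere and time point, and r therefore reflects the group differences as well as the spread within groups. Apln was most like Ddx21 (an RNA helicase, r = 0.946), Hmox1 (heme oxygenase 1, 0.945) and Il11 (interleukin 11, 0.942). In the tMCAO ipsilateral libraries at 24 h Hmox1 was at 6397, 7461 and 2069 and Il11 at 3160, 3280 and 1977, while sham ipsilateral libraries of that time had 248 to 415 and 7 to 30. Aplnr was most like Vsir (0.852), Tcirg1 (0.80) and Birc5 (0.787). Birc5, which encodes survivin and belongs to the proliferation markers, was at 8, 8 and 5 in sham and at 37, 35 and 24 in stroke ipsilateral libraries at 7 days.

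Cxcr4 was most like the laminin gene Lamb1 (0.894), Sh3bp5 (0.881) and Cd180 (0.838), a surface receptor of B cells and macrophages. Unc5b was most like Vegfc (0.875), a vascular endothelial growth factor, Lrrc49 (0.862) and Lhfpl2 (0.835). As for Unc5b, library 3 of Vegfc was the lowest of the sham and the highest of the stroke libraries at 7 days, with 2978, 3546 and 972 in the sham ipsilateral and 869, 1094 and 1708 in the tMCAO ipsilateral libraries. Robo4 was most like Phf10 (0.877), Def6 (0.871) and Flt4 (0.862), the receptor of the factor that Vegfc encodes. Plxnd1 was most like Slfn9 (0.884), H2-Q5 (0.838) and Parp14 (0.78), Esm1 like Fam167b (0.837), Slc43a3 (0.793) and Exoc3l2 (0.705), and Ackr3 like Ormdl1 (0.735), Cldnd1 (0.723) and Zdhhc9 (0.714). Within the set, the highest correlations were those of Cxcr4 with Aplnr (0.567) and with Apln (0.532), and the lowest was that of Unc5b with Robo4 (-0.561).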

How the data were processed

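RNA of 24 brain microvessel libraries had been sequenced by the authors from a stranded, poly(A)-selected kit. The submitters' processing notes name STAR 2.5.2b, featureCounts 1.5.1, DESeq2 1.6.2 and the mm10 (GRCm38) assembly. The deposited values are a score: the authors scaled the reads of each gene with DESeq2 size factors and rounded them, so that they are neither reads nor depth. Whether counting used strand, and the annotation release, are not given in the sources used here. The study pooled 3 hemispheres per library and left out libraries it judged to be outliers, so the spread is that of the libraries kept. The p-values measure the spread between pools.

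The 8 genes and all lists were chosen with earlier results of these data known. Log2(value + 1) of the 15982 genes with a mean above 5 was fitted with limma 3.58.1 in R 4.3.3 (mean-variance trend, 8 groups in the fit, 2-sided tests, Benjamini-Hochberg adjustment), for 13 comparisons. Regulated genes had an adjusted p under 0.05 and more than a 1.5-fold change on that scale. From each list the regulated genes with the largest increase and decrease at 24 h and 7 days were named, and other members behind a count were named after their values were seen. Levels per kilobase used merged exon lengths, found for 15966 of the 15982 genes. Figures and promoter searches used Python 3.11.15. The fit was tested on simulated data. DESeq2 and edgeR were not run, since the values are not whole reads. Same-numbered sham hemispheres deviated together (residual r 0.145 to 0.467), and the block changed no call between them. Same-numbered libraries of different animals reached 0.411 (sham ipsilateral, 7 days against 24 h, library 3), so r does not settle whether a number marks a shared pool. Alternatives were a pseudocount of 0.5, no filter or a minimum mean of 20, median centring, scaling to 8 endothelial markers, only the compared groups in the fit, a replicate block, no limit on the fold change and each library left out in turn.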

Additional observations from a re-analysis of the deposited data

Results flagged for a closer look

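The stroke effect on Apln differed between the time points: the interaction term (7 days minus 24 h, tMCAO against sham ipsilateral libraries) was -4.09 on the log2 scale (SE 0.60; limma, adjusted p = 3.04e-04), with an effect of 4.32 at 24 h and of 0.24 at 7 days. The 3 tMCAO ipsilateral libraries of 24 h lay at 1958 to 6818 normalized counts and the 3 of 7 days at 188 to 296.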

How the results depend on the processing

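The Apln calls (stroke against sham and against the contralateral side at 24 h, 7 days against 24 h, and the interaction) and the 7 day Aplnr and Cxcr4 differences between the tMCAO hemispheres kept their direction and call under every alternative run. Of 384 fold changes under settings other than a left-out library, 362 kept direction and call and 6 reversed, and of 348 with a library left out, 305 did and 13 reversed. Of the counts for the related lists, 11 of 128 and 25 of 96 moved by over 1.5 times.

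Scaling to the endothelial markers shifts all genes down by their mean difference, 0.17 at 24 h and 0.27 at 7 days against sham and 0.03 and 0.30 against the contralateral side. With it, 2 of the 8 genes were regulated against sham at 24 h (Apln and Unc5b), 2 at 7 days (Unc5b and Ackr3), 2 between the time points (Apln and Ackr3), and, between the tMCAO hemispheres, 1 (Apln) at 24 h and 3 at 7 days (Ackr3 added). With it, Ackr3 at 24 h (-0.10), Apln (-0.034) and Plxnd1 (-0.12) at 7 days against sham and Esm1 (-0.20) and Robo4 (-0.037) between the hemispheres at 7 days changed sign, and none of these was regulated with or without it. With only the compared groups in the fit, 2 genes (Apln and Esm1) were regulated against sham at 24 h and 0 at 7 days, and 3 (Esm1 added) between the tMCAO hemispheres at 24 h. The cause was not tested. With median centring, Plxnd1 passed between the tMCAO hemispheres at 7 days (0.62, adjusted p = 0.0352), for 3 genes in all, and Robo4 there changed sign at 24 h (-0.023).

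With 1 library left out, the number of regulated genes ran from 1 to 1 at 24 h and from 0 to 2 at 7 days against sham, from 1 to 2 between the time points and for the interaction, from 1 to 3 between the tMCAO hemispheres at 24 h and from 2 to 3 at 7 days. Fold changes that crossed 0 ran from -0.12 to 0.33 (Ackr3) and from -0.17 to 0.74 (Aplnr) at 24 h, from -0.11 to 0.57 (Apln) and from -0.21 to 1.12 (Esm1) at 7 days against sham, and from -0.34 to 0.52 (Aplnr) and -0.025 to 0.18 (Robo4) at 24 h and from -0.48 to 0.85 (Esm1, 7 days) between the tMCAO hemispheres. The adjusted p of Aplnr at 7 days ran from 0.030 to 0.196.

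Same-numbered tMCAO hemispheres deviated together less evenly than the sham ones (residual r 0.066, 0.360 and 0.327 at 24 h, and 0.059, 0.309 and 0.064 at 7 days). The labels do not say that a number marks a shared pool, and r cannot decide it, so the main fit did not pair hemispheres. With the replicate number as a block, the count between the time points was 2, with Aplnr added (adjusted p = 0.0445). With same-numbered hemispheres as a block, 3 genes were regulated between the tMCAO hemispheres at 24 h (Esm1 added, adjusted p = 0.023) and 3 at 7 days (Apln added, adjusted p = 0.0052). The block changed no other count. The deposited values give no read depth. With 3 pools per group the tests can miss differences, most of all where the spread is wide. The SE of the log2 fold change against sham was 0.53 for Aplnr and 0.58 for Esm1, but 0.14 for Robo4. Aplnr and Esm1 rest on few normalized counts per library, 33 to 389 and 32 to 239.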
